A study of Mus musculus with 4 samples.

Results

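The histone genes were followed as a group in the hippocampal transcriptome of mice with and without a forebrain deletion of inositol polyphosphate multikinase (IPMK). They were picked by gene symbol, taking every probe set whose symbol started with Hist1h to Hist4h, H2af, H3f3 or H1f, and they made up 85 of the 33793 probe sets of the array, for 81 of 30921 gene symbols. A probe set is the group of short probes that is read out as 1 value for a transcript. The symbols Hist1h to Hist4h name the replication-dependent genes (69 probe sets, 65 genes) and the other symbols name the variant genes (16 probe sets, 16 genes). A few probe sets carried values identical on every array, namely those of Hist2h2aa1 and Hist2h2aa2, the pair for Hist1h2ao and the pair for Hist1h2bq, and each such pair was counted once, which left 82 distinct readings, 66 of them replication-dependent. Of the 81 genes, 78 have another symbol in the RefSeq table used here, so that Hist1h2bc is now H2bc4. The symbols of the array are kept below. The replication-dependent Hist1h2al and Hist3h2bb-ps and the variant H2afy3 are transcribed pseudogenes in the same table.

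RNA of the right hippocampus, dissected from male mice on postnatal day 90, was hybridised to 4 Affymetrix Mouse Gene 2.0 ST arrays, with 1 mouse per array and 2 arrays per genotype. The IPMK WT mice were Ipmk f/f littermates without Cre. The IPMK cKO mice were Ipmk f/f;CaMKII-Cre, in which the recombinase is driven in excitatory neurons of the forebrain, and all 4 mice carry the floxed allele. Each genotype has a replicate 1 and a replicate 2, and the sources used here do not say whether a number stands for a litter, a day or a batch. The labels also give each mouse an animal number, and these lie closer together within a replicate number than within a genotype. What the animal numbers stand for is not stated. All values below are log2 values after robust multi-array averaging (RMA), and a difference is a difference of such values.

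Histones are the proteins around which DNA is wrapped. Replication-dependent histone genes lie in clusters, have no introns, are switched on during S phase to package newly copied DNA, and give mRNAs that end in a stem-loop instead of a poly(A) tail. Variant histones such as H3.3, H2A.Z, macroH2A and H1.0 come from scattered genes with ordinary polyadenylated mRNAs and are made throughout the cell cycle. They replace the canonical proteins in cells that no longer divide, among them neurons. Some clustered genes are known to give polyadenylated mRNAs as well when cells leave the cycle.

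Ipmk was read first as a check of the labels. Its first probe set read 7.68 and 7.71 on the IPMK WT arrays and 8.44 and 8.78 on those labelled IPMK cKO, a difference of 0.92 (SE 0.15, limma adjusted p = 0.9999). Its second probe set read 5.78 and 5.52 against 6.97 and 6.43, a difference of 1.05 (SE 0.21, limma adjusted p = 0.9999). Both were thus higher, not lower, on the arrays labelled IPMK cKO, and the groups did not overlap. Which exon is floxed is not given in the sources used here, so whether these probes lie in the deleted stretch is not known. The arrays are therefore called by their labels throughout. Over all probe sets the arrays had medians from 5.1 to 5.15, and 29.1% of probe sets had a mean under 4, where readings are close to the dim end of the array. The excitatory neuron markers read from a list median of 9.65 to 9.96 on the 4 arrays.

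In the comparison of genotypes, both classes of histone genes had medians near 0. Of the 66 replication-dependent readings, 27 were higher and 39 lower under the IPMK cKO label, with a median difference of -0.01 (range -0.47 to 0.64). Of the 16 variant readings, 8 were higher and 8 lower, with a median of 0.00 (range -0.88 to 0.24), and the median over all 33793 probe sets was 0.00. No histone reading passed an adjusted p under 0.05 in limma, as for 0% of all probe sets. The rewritten local pooled error (LPE) test also called no histone reading, against 2 of all 33793 probe sets. At an unadjusted p under 0.05, 2 replication-dependent readings were higher and 3 lower, against 0.979% and 1.88% of all probe sets, and no variant reading was below that p. Among replication-dependent readings the genotypes did not overlap for 4 (6.1%, higher) and 9 (13.6%, lower), near or under the shares of 12.4% and 14.8% over all probe sets. With 2 arrays against 2, an exact permutation test of 1 value cannot go below p = 0.333.

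The other labelled split behaved differently. The replication-dependent genes read higher on the 2 arrays numbered replicate 2 than on the 2 numbered replicate 1, in both genotypes, while the variant genes had a median near 0. Of the 66 replication-dependent readings, 48 were higher and 18 lower in replicate 2, with a median difference of 0.20 (range -0.62 to 1.38), of 0.17 within the IPMK WT arrays and of 0.23 within those labelled IPMK cKO. Of these 66, 39 were higher and 7 lower within both genotypes, against 9692 and 10203 of all 33793 probe sets. The 16 variant readings split into 8 higher and 8 lower, with a median of 0.00 (range -0.42 to 0.80), of 0.00 and 0.02 within the genotypes. Over all probe sets the median was -0.01, with 48.6% higher.

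The replicate arrays did not overlap for 34 replication-dependent readings that were higher (51.5%) and for 6 that were lower (9.1%), against 22% and 22.7% of all probe sets. For the variant readings these counts were 1 and 4 of 16. At an unadjusted p under 0.05 in limma, 20 replication-dependent readings were higher and 1 was lower, against 6.6% and 5.51% of all probe sets, and of the variant readings none was higher and 1 was lower. No histone reading passed an adjusted p under 0.05 in limma, as for 0% of all probe sets, the lowest adjusted p over the whole table being 0.144. Other ways of estimating the error do call members, all of them higher in replicate 2. Limma with an intensity trend called 7 of the 82 readings (2.61% of all probe sets), limma over probe sets with a mean of at least 6 called 2 of 20 (5.04%), and the LPE test called 10 of 82 (2.86%), of which 9 were replication-dependent and the other was H2afz. The difference between the classes was not itself tested, since the members share clusters, sequence and probes.

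**Figure D1:**
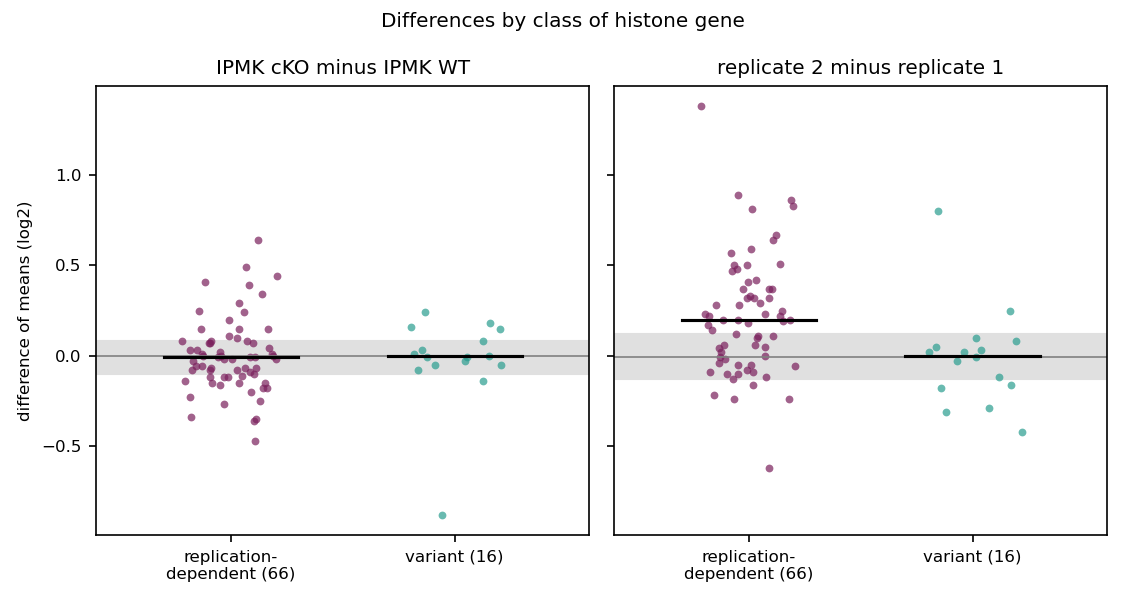
Difference of means (log2) of each histone reading by class, for IPMK cKO minus IPMK WT (left) and replicate 2 minus replicate 1 (right). Each point is 1 reading, the black bar is the class median, the grey line the median of all 33793 probe sets and the grey band their middle quartiles. The class medians are -0.01 and 0.00 on the left and 0.20 and 0.00 on the right.

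The medians were above 0 in each family of replication-dependent genes. The median replicate difference was 0.20 over 5 linker histone H1 readings, 0.17 over 17 H2A, 0.23 over 18 H2B, 0.16 over 12 H3 and 0.21 over 14 H4 readings. Readings that were higher numbered 3 of 5 for H1, 12 of 17 for H2A, 11 of 18 for H2B, 11 of 12 for H3 and 11 of 14 for H4. By position, the median was 0.20 over the 52 readings on chromosome 13, where the Hist1 cluster lies. The 52 include the pseudogene Hist1h2al, which lies apart from that cluster and had a difference of -0.62. Over the 9 readings of the Hist2 cluster on chromosome 3 the median was 0.28, all 9 of them higher. The 3 readings of chromosome 11 had a median of 0.19. The 2 readings of Hist4h4 on chromosome 6 were both lower, with a median of -0.16.

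Histone genes of a family are near copies of each other, so probes of 1 gene can also bind RNA from another. The annotation marks 18 of the 66 replication-dependent readings as cross-hybridizing, against 1 of 16 variant readings and 14.7% of all probe sets. The 48 readings marked as unique had a median of 0.20, with 33 of 48 higher and 23 not overlapping and higher (47.9%, against 21.7% of all unique probe sets). The 18 cross-hybridizing ones had a median of 0.17, with 15 of 18 higher and 11 not overlapping and higher (61.1%, against 23.7% of all cross-hybridizing probe sets). The 14 readings with a mean of at least 6 had a median of 0.22, with 12 of 14 higher and 10 not overlapping and higher (71.4%, against 33% of all probe sets this bright). The 31 with a mean under 4 had a median of 0.18, with 20 of 31 higher and 12 not overlapping and higher (38.7%, against 15.8%). Differences between these subsets were not tested.

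**Figure D2:**
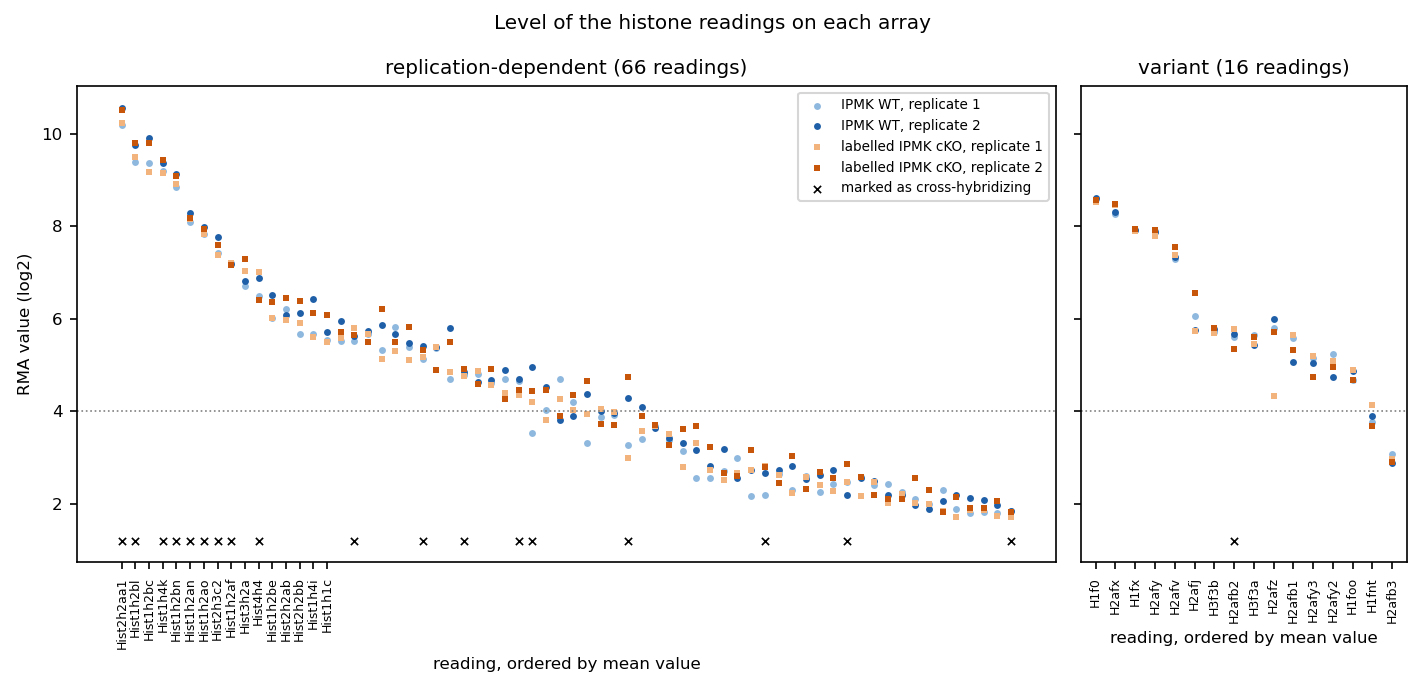
RMA value (log2) of every distinct histone reading on each of the 4 arrays, ordered by mean value within the 66 replication-dependent (left, the first 16 named) and the 16 variant readings (right). Circles are IPMK WT arrays, squares are arrays labelled IPMK cKO, darker shades are replicate 2, and crosses at the bottom mark cross-hybridizing probe sets. Of the replication-dependent readings 31 lie under the dotted line at 4, against 2 of the variant readings.

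How bright a histone gene reads limits what can be said of it. Of the replication-dependent readings 31 had a mean under 4, 21 lay from 4 to 6 and 14 read at least 6, and 9 of these 14 were cross-hybridizing. The variant readings had 2 under 4, 8 from 4 to 6 and 6 at or above 6, all 6 marked as unique. The class medians per array were 3.97 and 4.33 on the IPMK WT arrays and 4.04 and 4.39 on those labelled IPMK cKO for the replication-dependent genes, replicate 1 first. The same medians were 5.68, 5.71, 5.66 and 5.67 for the variant genes. Probes of different genes bind with different strength, so these values do not rank the mRNAs.

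Among the 6 replication-dependent readings at or above 8, Hist1h2bc, which encodes an H2B, is the one marked as unique. It read 9.36 on IPMK WT replicate 1, 9.91 on IPMK WT replicate 2, 9.17 on labelled IPMK cKO replicate 1 and 9.80 on labelled IPMK cKO replicate 2. Both replicate 2 arrays were above both replicate 1 arrays. The difference was 0.59, or 1.51-fold (SE 0.11, limma adjusted p = 0.2907), while the difference by genotype was -0.15 (SE 0.27).

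The H2A genes Hist2h2aa1 and Hist2h2aa2, a duplicated pair with identical values, had the highest histone reading, of 10.19 and 10.56 in IPMK WT and 10.23 and 10.52 in labelled IPMK cKO. Their replicate difference was 0.33 (SE 0.09, limma adjusted p = 0.3272). The H2B gene Hist1h2bl read 9.39, 9.75, 9.5 and 9.79 in the same order, a difference of 0.32 (SE 0.10). In both cases replicate 2 was above replicate 1 without overlap, and the genotype differences were 0.00 and 0.08.

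The next brightest were Hist1h4k, an H4 gene, and Hist1h2bn, an H2B gene. Hist1h4k read 9.20, 9.36, 9.14 and 9.42, with a replicate difference of 0.22 (SE 0.09, limma adjusted p = 0.4374). Hist1h2bn read 8.84, 9.12, 8.92 and 9.09, with a difference of 0.23 (SE 0.09, limma adjusted p = 0.4273). Both kept the order of replicates without overlap and missed the unadjusted threshold, and both are cross-hybridizing.

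The larger differences lay in dimmer probe sets. Hist1h4d, an H4 gene, had the largest of all histone readings. It read 3.28 and 4.29 in IPMK WT and 2.99 and 4.74 in labelled IPMK cKO, a difference of 1.38, or 2.60-fold (SE 0.19, limma adjusted p = 0.2613), from 9 probes marked as cross-hybridizing. Hist1h3d, an H3 gene, read 3.32, 4.37, 3.93 and 4.65, a difference of 0.89 (SE 0.23), or 0.58 without IPMK WT replicate 1. Hist1h4n, an H4 gene, read 3.54, 4.96, 4.20 and 4.43 from cross-hybridizing probes, a difference of 0.83 (SE 0.28) that was 1.42 within IPMK WT and 0.23 within labelled IPMK cKO. Without IPMK WT replicate 1 it was 0.49.

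Between these and the brightest probe sets lay unique readings with the same direction. Hist1h2bg, an H2B gene, read 5.32, 5.86, 5.13 and 6.20, a difference of 0.81 (SE 0.15, limma adjusted p = 0.2854). Hist1h4i, an H4 gene, read 5.66, 6.42, 5.60 and 6.12, one of 0.64 (SE 0.13). Hist1h2be, an H2B gene, read 6.01, 6.51, 6.02 and 6.35, one of 0.42 (SE 0.10). None of these 3 overlapped between replicates, but they were picked by their p on the same values, so this adds no support.

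Of the 5 linker histone readings of this class, 2 were below an unadjusted p of 0.05. Hist1h1c, which encodes H1.2, read 5.55, 5.72, 5.50 and 6.07, a difference of 0.37 (SE 0.14, limma adjusted p = 0.4082), and without labelled IPMK cKO replicate 2 it was 0.20. Hist1h1a, which encodes H1.1, read 3.14, 3.31, 2.80 and 3.62, one of 0.50 (SE 0.17), and of 0.33 or 0.34 without the first or the second of the arrays labelled IPMK cKO. The other 3 H1 readings had differences from -0.08 to 0.20. One of them is Hist1h1t, the testis H1, at 3.69, 3.63, 3.68 and 3.71.

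The remaining readings below an unadjusted p of 0.05 that were higher in replicate 2 were Hist1h2ad (0.67), Hist1h2ac (0.57), Hist1h3e (0.50), Hist2h2bb (0.47), Hist1h3a (0.37), Hist1h4j (0.32) and Hist1h2ah (0.25). Among these, Hist1h2ad, Hist1h3a, Hist1h4j and Hist1h2ah have means under 3, so their values are at the dim end of the array. Hist2h2bb, an H2B gene, read 5.67, 6.12, 5.91 and 6.39, with a genotype difference of 0.25 (SE 0.23) beside its replicate difference. Hist2h3c2, an H3 gene of the chromosome 3 cluster, was below that p with both probe sets that carry its symbol. The unique one read 4.69, 5.79, 4.85 and 5.49, a difference of 0.86 (SE 0.14). The cross-hybridizing one lies on the other strand and does not overlap the RefSeq gene. It read 7.42, 7.76, 7.37 and 7.59, a difference of 0.28 (SE 0.11). The direction was shared and the size was not.

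Of the replication-dependent readings 18 were lower in replicate 2, and 6 of them did not overlap, a smaller share than over all probe sets. The pseudogene Hist1h2al read 4.70 and 3.82 in IPMK WT and 4.26 and 3.89 in labelled IPMK cKO, a difference of -0.62 (SE 0.17, limma adjusted p = 0.3261), or -0.40 without IPMK WT replicate 1. Hist4h4, which lies apart from the large clusters, had a unique probe set at 4.80, 4.64, 4.86 and 4.59, a difference of -0.22 (SE 0.09). Its cross-hybridizing probe set read 6.49, 6.88, 7.0 and 6.41, so its replicates overlapped. The other 4 lower without overlap were Hist1h3b (-0.24), Hist1h2bm (-0.16), Hist1h2ak (-0.09) and Hist1h2af (-0.04), the first 3 with means under 3. Hist1h2af, an H2A gene, read 7.21, 7.18, 7.21 and 7.16. The testis-type genes Hist1h2aa and Hist1h2ba had differences of -0.24 and -0.10, with overlapping replicates.

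**Figure D3:**
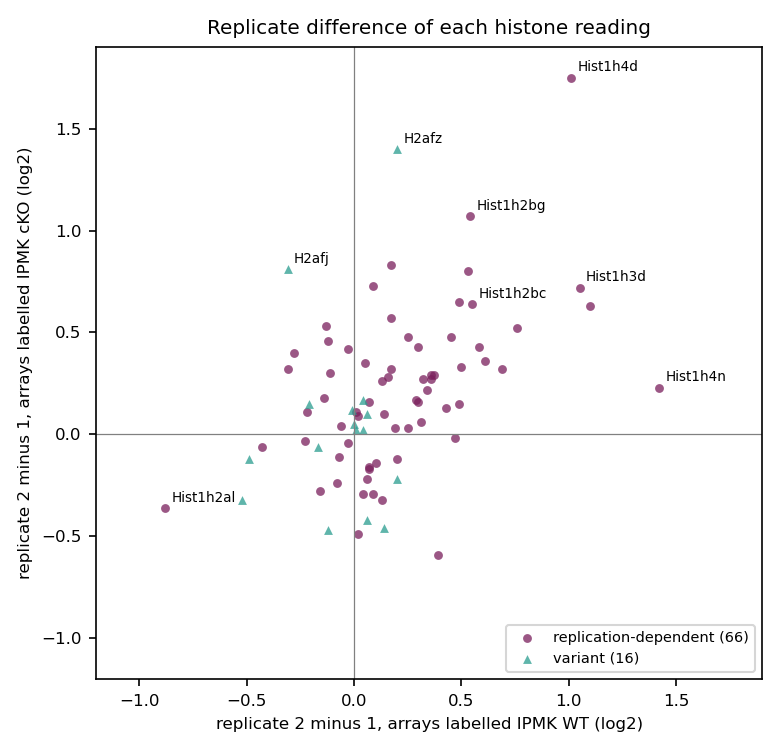
Replicate 2 minus replicate 1 (log2) of each distinct histone reading within the IPMK WT arrays (horizontal) and within those labelled IPMK cKO (vertical), for 66 replication-dependent (circles) and 16 variant readings (triangles). In the upper right, higher in replicate 2 in both genotypes, lie 39 of the 66 replication-dependent and 5 of the 16 variant readings. Of all 33793 probe sets, 9692 were higher in both genotypes.

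Against this, the 5 replication-dependent readings below an unadjusted p of 0.05 by genotype were few and mixed in direction. Hist3h2a, an H2A gene on chromosome 11, was the bright one. It read 6.70 and 6.82 in IPMK WT and 7.04 and 7.30 in labelled IPMK cKO, a difference of 0.41 (SE 0.14, limma adjusted p = 0.9999). Hist2h2ac, an H2A gene of the chromosome 3 cluster, read 4.70, 4.90, 4.39 and 4.27, a difference of -0.47 (SE 0.14, limma adjusted p = 0.9999). The other 3 were Hist1h2ab at 0.64, Hist1h2ae at -0.35 and Hist1h3h at -0.34. Hist1h2ab and Hist1h2ae have means of 3.17 and 2.01, and without IPMK WT replicate 1 the difference of Hist1h2ab was 0.33. In all 5 the genotypes did not overlap, but they were picked by their p on the same values, so this adds no support.

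Among the 5 brightest variant genes, H1f0, H1fx and H2afy overlapped between replicates, as did H2afx and H2afv. H1f0, which encodes the linker histone H1.0 of non-dividing cells, read 8.59 and 8.60 in IPMK WT and 8.53 and 8.56 in labelled IPMK cKO. Its 4 values spanned less than the SE of its genotype difference (-0.05, SE 0.12). H1fx, another replication-independent H1, read 7.92, 7.92, 7.89 and 7.94. H2afy, which encodes macroH2A1, read 7.89, 7.87, 7.79 and 7.91.

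H2A.X and H2A.Z are variants of H2A, the first known as the histone that is phosphorylated around DNA breaks. H2afx read 8.27 and 8.31 in IPMK WT and 8.46 and 8.48 in labelled IPMK cKO, a difference of 0.18 (SE 0.12, limma adjusted p = 0.9999). Its genotypes did not overlap. That held for 2 of 16 variant readings that were higher (12.5%) and 2 lower (12.5%), against 12.4% and 14.8% of all probe sets. H2afv, an H2A.Z gene, read 7.29, 7.33, 7.38 and 7.55, a genotype difference of 0.15 (SE 0.13). H2afz, the other H2A.Z gene, read 5.8 and 6.0 in IPMK WT and 4.32 and 5.72 in labelled IPMK cKO. Its genotype difference of -0.88 (SE 0.43, limma adjusted p = 0.9999) and its replicate difference of 0.80 (SE 0.48) rest on the single low array, labelled IPMK cKO replicate 1, without which they were -0.18 and 0.06.

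H3.3, the H3 variant laid down outside replication, is encoded by a pair of genes. H3f3b read 5.72 and 5.78 in IPMK WT and 5.69 and 5.79 in labelled IPMK cKO, a replicate difference of 0.08 (SE 0.09). H3f3a read 5.64, 5.43, 5.46 and 5.61, one of -0.03 (SE 0.12). Neither difference passed its own error. H2afj, an H2A variant, read 6.06, 5.75, 5.74 and 6.55, with the highest value on labelled IPMK cKO replicate 2 and differences of 0.24 (SE 0.28) by genotype and 0.25 (SE 0.29) by replicate.

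Among the variant readings, 4 of 16 did not overlap between replicates and were lower in replicate 2, a share near the 22.7% of all probe sets. H2afb1, a testis type of H2A now called H2al2a, was the one below an unadjusted p of 0.05, at 5.58, 5.06, 5.64 and 5.32, a difference of -0.42 (SE 0.12, limma adjusted p = 0.3368). H2afy2, which encodes macroH2A2, read 5.24, 4.75, 5.08 and 4.96, a difference of -0.31 (SE 0.12). H2afy3, a transcribed pseudogene, and H2afb3 had differences of -0.29 and -0.12. H1foo and H1fnt, known from oocyte and testis, read at means of 4.77 and 3.87, with overlapping replicates.

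Many H2A and H2B genes lie head to head and share the stretch between their starts, so the members offer 13 neighbouring pairs on opposite strands with starts at most 693 bases apart, 12 of them an H2A with an H2B. The 2 copies of the pair Hist1h2ao and Hist1h2bq, with identical values, were counted once. In the replicate comparison both genes of 6 pairs were higher, both of 1 were lower and 6 pairs went opposite ways. Some of these signs rest on differences near 0, such as -0.02 for Hist1h2bf, or on dim readings, such as Hist3h2bb-ps (-0.06, mean 2.18). By genotype 2 pairs were higher, 5 lower and 5 opposite, with 1 holding a difference of 0. Only 6 of the 13 pairs had unique probe sets on both sides. The stretches between 2 such pairs are shown, because in the first pair both genes moved together and in the second they did not. They come from the RefSeq promoter sequences of build GRCm38.p6, plus strand, with the capitals marking 3 promoter motifs on either strand, the CCAAT box (CCAAT), the TATA box (spelled TATAAA) and the octamer ATTTGCAT, none of which overlap here.
Hist1h2ac to Hist1h2bc, chr13:23683960-23684198: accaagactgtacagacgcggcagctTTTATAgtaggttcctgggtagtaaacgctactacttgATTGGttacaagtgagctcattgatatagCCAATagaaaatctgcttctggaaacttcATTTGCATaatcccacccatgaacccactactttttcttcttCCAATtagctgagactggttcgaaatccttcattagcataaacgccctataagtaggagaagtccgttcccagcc
Hist1h2ae to Hist1h2bg, chr13:23571221-23571399: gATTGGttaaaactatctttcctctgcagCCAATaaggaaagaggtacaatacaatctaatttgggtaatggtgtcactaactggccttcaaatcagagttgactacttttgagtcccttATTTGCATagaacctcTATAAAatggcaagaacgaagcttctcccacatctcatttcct

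The first stretch spans 239 bases and holds 3 CCAAT, 1 TATAAA and 1 octamer. Hist1h2ac, on the minus strand side, read 4.03 and 4.52 in IPMK WT and 3.80 and 4.45 in labelled IPMK cKO, a replicate difference of 0.57 (SE 0.12), beside 0.59 (SE 0.11) for Hist1h2bc. The second stretch spans 179 bases and holds 2 CCAAT, 1 TATAAA and 1 octamer. Hist1h2ae read 2.30, 2.07, 1.85 and 1.82, with a replicate difference of -0.13 (SE 0.19), beside 0.81 (SE 0.15) for Hist1h2bg. The TATAAA is on the minus strand in the first stretch and on the plus strand in the second, and Hist1h2ae reads at the dim end of the array.

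The same motifs were counted in the RefSeq promoters, 250 bases before to 50 after each gene's start, which were at hand for 72 of the 81 histone genes. CCAAT, on either strand, was in 49 of 58 replication-dependent promoters (84.5%) and 9 of 14 variant promoters (64.3%), against 41.1% of the 27025 promoters in the table. TATAAA was in 34 of 58 (58.6%) and 1 of 14 (7.1%), against 15.7%. The octamer, known as a site of H2B promoters, was in 14 of 58 (24.1%) and 1 of 14 (7.1%), against 2%. All 14 were H2A (7 of 17) or H2B (7 of 15) genes. Promoters of a head-to-head pair can share a stretch, so 1 octamer can count for both genes. Among H2A and H2B readings, the median replicate difference was 0.12 for the 14 with the octamer and 0.22 for the 17 with no match. This split was not tested.

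The genes that make and handle histone mRNA had a median near 0 by replicate. Of 14 genes for histone mRNA transcription, processing and decay, none was below an unadjusted p of 0.05 in the replicate comparison, with a list median of 0.03. The lowest p belonged to Lsm10, a protein of the U7 particle (0.22), and Eri1, an exonuclease that acts on the histone stem-loop (0.16). Slbp, which encodes the protein that binds the histone stem-loop, read 6.35, 6.52, 6.47 and 6.57, a difference of 0.14 (SE 0.10). By genotype the list median was 0.00 and 1 gene was below that p, Rnu7, the U7 RNA of histone 3′ end cleavage. It read 4.03 and 3.75 in IPMK WT and 2.84 and 3.21 in labelled IPMK cKO, a difference of -0.87 (limma adjusted p = 0.9999). These are dim values, from a probe set marked as cross-hybridizing.

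So did genes of DNA replication and cell division. Of 25 such genes, among them Mki67, Pcna and the Mcm helicase subunits, none was below an unadjusted p of 0.05 in either comparison, with medians of -0.06 by replicate and 0.01 by genotype. The median level of the list was 5.15. Pcna had a mean of 7.45 and Mki67 of 4.20, while Birc5 (3.38) and Bub1 (2.73) were under 4, where a flat reading says little. The lowest p by genotype belonged to Ccna2, the S phase cyclin (0.24), and Mcm6 (-0.32), and by replicate to Cdk1 (-0.24) and Mcm3 (0.20). Of 24 histone chaperones and exchange factors, 3 were higher and 2 lower in replicate 2 at that p, with a list median of 0.04. Over all probe sets 6.6% were higher and 5.51% lower at that p. Of the 12286 with a mean of at least 6, 1289 were higher and 650 lower, so these counts are near the background. Ep400, an ATPase of an H2A.Z exchange complex, was at 0.76 (SE 0.09), Ubn2 and Asf1a, partners in H3.3 deposition, were at 0.40 and 0.34, and Cabin1 and Atrx were at -0.23 and -0.42. None of the 24 was below that p by genotype, where Chaf1b (0.22) and Ssrp1 (0.15) had the lowest. Of the variant histones named outside the rule, Cenpa and Hils1 had replicate differences of -0.14 and 0.03.

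Markers of astrocytes, microglia and oligodendrocytes moved with the replicate number as the replication-dependent genes did. All 6 astrocyte markers were higher in replicate 2 without overlap, 5 of 6 at an unadjusted p under 0.05, with a median difference of 0.50 and list medians of 9.38 and 9.77 in IPMK WT and 9.36 and 9.80 in labelled IPMK cKO. The 5 were Aqp4 (0.50), Gfap (0.49), Aldh1l1 (0.54), Slc1a3 (0.35) and Gja1 (0.55), and Gfap, the astrocyte filament protein, read 9.20, 9.62, 9.20 and 9.75. All 6 microglia markers were higher (median 0.28, 4 at that p, list medians 7.35, 7.89, 7.29 and 7.78), as were all 6 oligodendrocyte markers (median 0.22, 2 at that p, list medians 9.01, 9.25, 8.93 and 9.25). The 4 oligodendrocyte precursor markers were mixed (median 0.16). Olig1 (0.49) and Olig2 (0.30) were higher at that p, while Pdgfra (0.02) and Cspg4 (-0.11) were not. Excitatory neuron markers went the other way, with 5 of 6 lower, a median of -0.18 and 2 at that p, Neurod6 (-0.34) and Prox1 (-0.32). Over all probe sets, 22% were higher without overlap, and 6.6% were higher and 5.51% lower at that p. Among those with a mean of at least 6, 33% were higher without overlap, and 1289 of 12286 were higher and 650 lower at that p.

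The other marker lists had medians on both sides of 0. The replicate medians were -0.01 for interneurons, -0.07 for endothelial and mural cells, 0.11 for choroid plexus, 0.01 for immature granule neurons and progenitors and -0.20 for erythroid cells, with Vtn (-0.51) and Igfbpl1 (0.43) at that p. By genotype all 4 choroid plexus markers were lower (median -0.36) and all 3 erythroid markers higher (median 0.27), and Alas2 (0.37) and Nes (0.33) were at that p. The choroid plexus list was lowest on labelled IPMK cKO replicate 1 (-0.47 from the mean of the 4 arrays), the array that carries the low H2afz value. Their part in that value was not tested. No marker passed an adjusted p under 0.05 in either comparison. The part of these markers' cells in the difference of the replication-dependent histone genes was not tested, and in bulk tissue fewer cells of a type and less RNA per cell cannot be told apart.

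**Figure D4:**
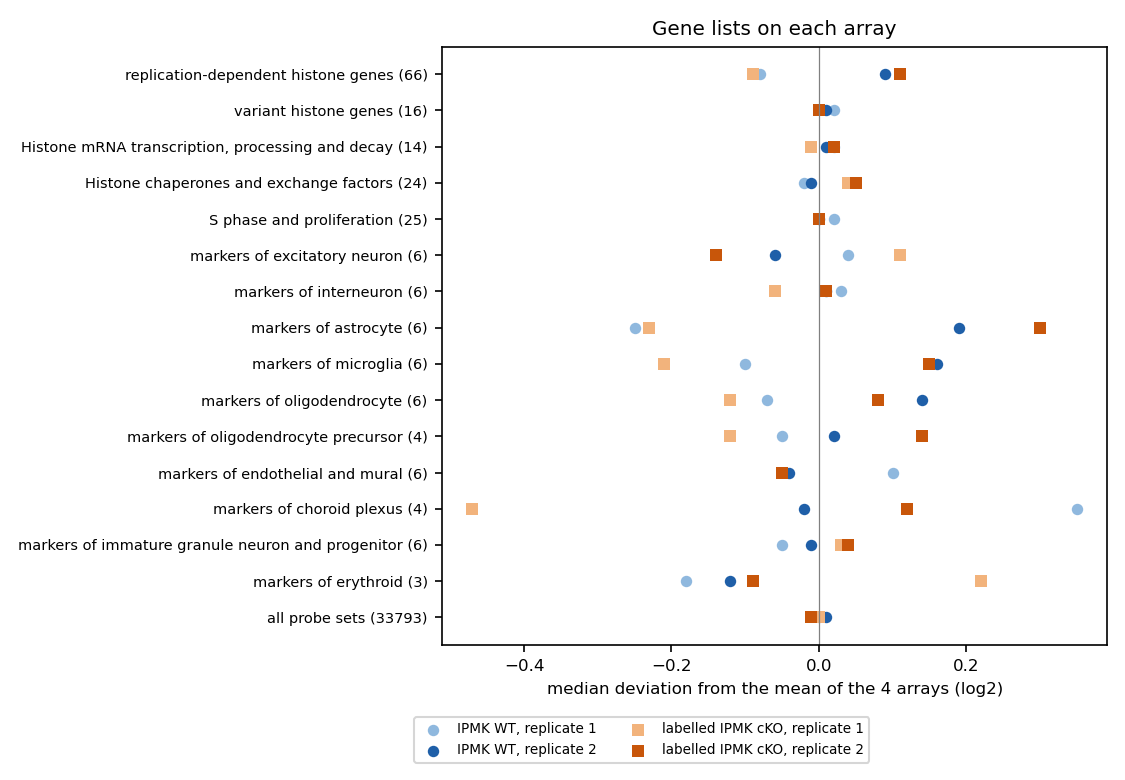
Median deviation (log2) of each gene list from the mean of the 4 arrays, 1 symbol per array, with the number of genes or readings in brackets; circles are IPMK WT arrays, squares arrays labelled IPMK cKO, and darker shades replicate 2. The replication-dependent histone genes lie at -0.08 and -0.09 on the replicate 1 arrays and at 0.09 and 0.11 on the replicate 2 arrays, and the variant genes from 0.00 to 0.02.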

How the data were processed

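The authors scanned the arrays and summarised the probes to gene level by robust multi-array averaging in Affymetrix Expression Console. The deposited values are log2 values, already background-corrected and quantile-normalized. The annotation build of the array is not given in the sources used here. The 2 deposited tables held the same values, and 5 empty or total lines were left out. A further 4 columns of per-array values, repeats of those used, and the authors' own fold changes and p-values were not used.

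Probe sets were compared with limma 3.58.1 in R 4.3.3 (lmFit and eBayes) over all 33793, with Benjamini-Hochberg adjustment, once by genotype and once by replicate number. The LPE test named in the methods was rewritten with 100 intensity bins. Both were tested on simulated data. "Not overlapping" means that every array of 1 group lay above every array of the other. The members and lists were chosen with earlier results of these data known, so lists are described by counts and medians without a test of their own. The members named are the 5 brightest per class, all at an unadjusted p under 0.05, and the 3 highest and lowest differences per comparison among those with a mean of at least 6, beside others singled out after their values were seen. Of the lists of histone-handling and S phase genes, those at that p or, if none, the 2 with the lowest p were named, and Slbp was added after its value was seen. Alternatives covered array scaling, filters on dim and on cross-hybridizing probe sets, the error prior, each array left out and several probe sets per gene. Each group has 2 arrays, which limits the precision.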

Additional observations from a re-analysis of the deposited data

Results flagged for a closer look

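The median difference of the 16 variant histone readings, labelled IPMK cKO minus IPMK WT, was -0.03 between the replicate 1 arrays and 0.01 between the replicate 2 arrays, so its sign differed between the replicate numbers. This difference was not tested.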

How the results depend on the processing

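The replicate difference of the replication-dependent readings, 0.20 at the median, ran from 0.17 to 0.23 under the other scalings, filters and choices of probe set, and from 0.18 to 0.21 with each array left out. Cross-hybridizing probe sets alone (0.17) and a set without pseudogenes (0.20) were chosen after seeing the data. By genotype the median of -0.01 ran from -0.06 to 0.01, and from -0.11 to 0.08 with each array left out.

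In the genotype comparison, readings at an unadjusted p under 0.05 numbered 5. With the replicate block they numbered 8, with renewed quantile normalization or a mean of at least 4 they numbered 3, with a mean of at least 6 (fewer tested) 1, in the LPE test 2, and with each array left out 3 to 9. The replicate numbers were not shown to pair the mice. The correlation of the replicate differences of the 2 genotypes over probe sets was 0.244 with 2 pairs, and no histone reading passed an adjusted p under 0.05 with the block. In the replicate comparison, readings at an adjusted p under 0.05 numbered 0, against 7 with an intensity trend, 2 with a mean of at least 6 and 10 in the LPE test, and 0 with each array left out. Those at an unadjusted p numbered 22, against 8 with a mean of at least 6, where fewer were tested, and 15 to 20 with each array left out. The variant median by genotype, 0.00, was 0.02 with each array centred on its median, 0.07 with a mean of at least 6, and -0.04 to 0.03 with each array left out. By replicate, also 0.00, it was 0.03, 0.04 and -0.03 to 0.01. The cause of these shifts was not tested. Of 506 values of named members per comparison, 60 by genotype and 15 by replicate had the other sign, none of them called.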

Other observations

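Replication-dependent readings whose probe sets span over 1000 bases of the annotation, 20 of 66, had a median value of 4.96 and a median replicate difference of 0.25, with 13 of 20 not overlapping and higher in replicate 2. The 46 that span at most 1000 bases had a median value of 3.48 and a median difference of 0.18, with 21 of 46, against 22% of all probe sets. Among probe sets marked as unique, 5 of 17 long ones and 22 of 31 short ones had a mean under 4. Probe sets of different genes are not on 1 scale, and the split was chosen after the values were seen.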
